A study of Homo sapiens with 24 samples.

Results

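mHAR123 denotes H9 human embryonic stem cells (hESCs, also known as WA09) in which the human sequence of HAR123, a human accelerated region inside an intron of SMG6, was replaced by its mouse ortholog through CRISPR editing. The stage change of this genotype was read from 6 of 24 libraries, taken by their column labels: 3 of undifferentiated mHAR123 cells (ESC, day 0) and 3 of mHAR123 cells after 5 days of neuroectoderm differentiation (ECTO). Of 61551 genes, 22173 had enough counts to be tested. The remaining 18 libraries hold the same stages, 3 libraries each, of hHAR123 (unedited H9 cells with the human element), HAR123-KO (the element deleted) and cHAR123 (the chimpanzee ortholog in its place).

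To form neuroectoderm, all genotypes were grown in KnockOut DMEM with 10% serum replacement, Noggin (500 ng/ml) and SB431542 (10 µM). Noggin binds BMP ligands and SB431542 blocks the receptors of Activin and Nodal, so both branches of SMAD signalling are held down. In undifferentiated hESCs, POU5F1, NANOG and SOX2 form the core pluripotency circuit, and Nodal and FGF signals keep it active. On release from these signals the cells turn to neural ectoderm by default, switch on PAX6 and SOX1, and then take on regional identities from forebrain to spinal cord. Cells at the rim of the neural plate form the neural border, from which neural crest and roof plate arise. The comparison asks which genes changed between the stages in cells that carry the mouse element. The tests against the other genotypes ask whether that change differed between genotypes.

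Each genotype was grown from 2 clones, and neither the labels nor the methods say which clone gave which library. The replicates are therefore separate libraries, and p-values measure the spread between them, part of which may be technical. A difference between genotypes cannot be told apart from a difference between their clones. Total counts were 28475300 to 34492989 in the ESC libraries and 23113486 to 25978892 in neuroectoderm. The mitochondrially encoded share was 4.29% to 4.47% in ESC and 2.4% to 2.43% in neuroectoderm. Levels are given as CPM, a gene's counts scaled to a common library total. Where a library held no count of a gene, up to 3 counts remain possible, and these limits, like the counting intervals below, cover counting error only.

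The identity of the mHAR123 neuroectoderm columns was checked before use. Per-gene means recomputed from the columns labelled mHAR123 ECTO equalled those of a supplementary listing named for cHAR123 within 0.1% for 117 of 117 genes, against 2 of 117 for the columns labelled cHAR123 ECTO. The reverse held for the listing named for mHAR123, with 114 of 114 genes equal in the columns labelled cHAR123 ECTO. At the ESC stage each listing matched the columns of its own label, for 143 of 143 mHAR123 genes and 87 of 87 cHAR123 genes. Within the counts, 33 genes were called between mHAR123 and cHAR123 ESC. Of these, 23 were tested in neuroectoderm by column label, where 22 had the same direction, 14 were called in it and 0 were called in the opposite one. The column labels are followed throughout. With the columns labelled cHAR123 ECTO in their place, the stage change of mHAR123 gave 4818 genes higher and 4678 lower.

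Gene expression was remodelled widely between the stages. Genes were called at an adjusted p under 0.01 and a log2 fold change beyond 1 in edgeR's quasi-likelihood F test with Benjamini-Hochberg adjustment. In neuroectoderm 4715 genes were higher (21.3% of those tested) and 4585 were lower (20.7%). Changes beyond 3 on the log2 scale numbered 821 upward and 1218 downward. Of the higher genes, 137 had at most 3 counts in every ESC library and at least 1 CPM in neuroectoderm, and 226 of the lower genes showed the reverse. Genes called higher took 3.53% to 3.58% of the counts of an ESC library and 15.5% to 15.7% of a neuroectoderm library. Genes called lower went from 25.9% to 26.1% of counts in ESC to 9.34% to 9.37% in neuroectoderm. Long noncoding RNAs were called higher in 1614 of 4136 tested (39%) and lower in 651 (15.7%). Protein-coding genes ran the other way, with 2348 of 15064 higher (15.6%) and 3404 lower (22.6%). TMM scaling set the median log2 change of all tested genes at 0.03, and scaling by total counts alone set it at 0.20 and gave 5553 higher and 4000 lower, so directions below are relative to the TMM scale.

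**Figure D1:**
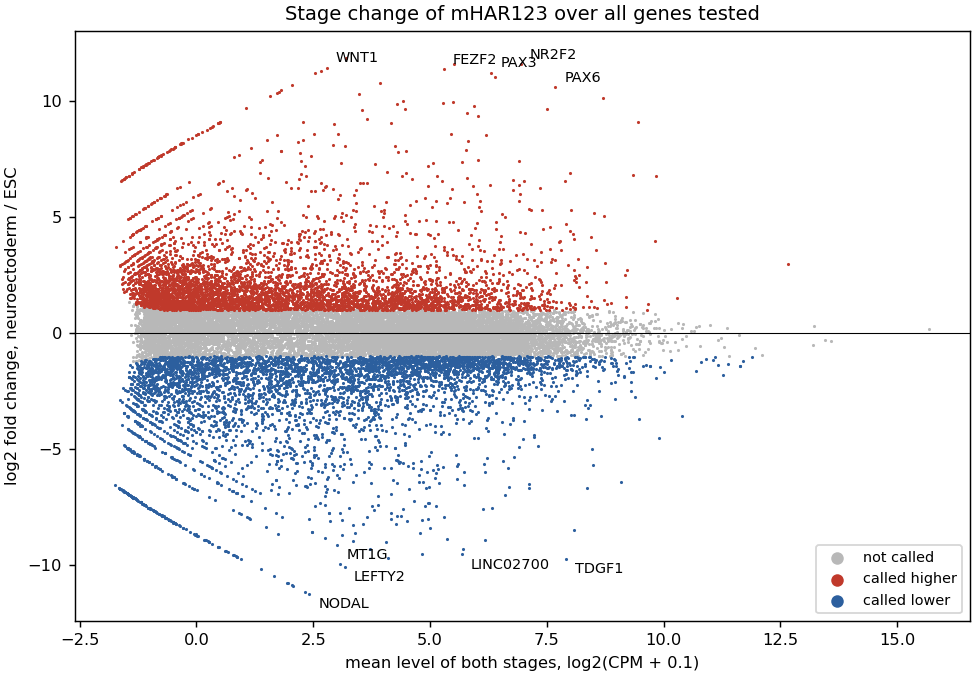
Log2 fold change between neuroectoderm and ESC libraries of mHAR123 (vertical axis) against the mean level of both stages as log2 of CPM plus 0.1 (horizontal axis), 1 point per tested gene. Red points are the 4715 genes called higher, blue points the 4585 called lower, and the named genes are among those with the largest changes.

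The genes named below follow rules on the size of the change, and the 42 gene lists they come from were drawn up by function. The rules gave 192 called genes. In all 192 the CPM of ESC and neuroectoderm libraries did not overlap, and adjusted p (edgeR) ranged from 2.62e-71 to 1.32e-04. Both follow from choosing the largest called changes and add no support to them. Over all tested genes, 78.6% had an adjusted p (edgeR) under 0.01 at any size of change.

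The largest increases were in transcription factors and signals of the early neural plate. MAB21L2, a regulator of eye and midbrain development, had no count in the ESC libraries and 17.4, 19.5 and 17.4 CPM in the neuroectoderm libraries. Against a floor of 3 counts over the ESC group it was at least 556-fold higher. WNT1, a signal of the dorsal midline and the midbrain border, was likewise without a count in ESC and stood at 13.5, 13.5 and 13.9 CPM in neuroectoderm, at least 418-fold higher. The long noncoding RNA LINC00404 rose from no count to 11.9, 12.5 and 12.9 CPM, at least 381-fold. These 3 genes were therefore read in every neuroectoderm library and in no ESC library.

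NR2F2 and NR2F1 encode COUP-TF nuclear receptors of the developing brain. NR2F2 (chr15:96325938-96340263, GRCh38) stood at 0.029, 0.141 and 0.0342 CPM in ESC and 242, 246 and 247 CPM in neuroectoderm. Its log2 fold change was 11.62 ± 0.10 (n = 3 per stage). Here and below, the value after ± is the size of the change divided by the square root of the F statistic. It is not a direct standard error, and it understates the counting error where a group held few counts. NR2F1 had 2 counts over the 3 ESC libraries and 91.8, 90.8 and 89.7 CPM in neuroectoderm, a ratio of 4186 (95% counting interval 1158 to 34580). The divergent noncoding neighbour of NR2F2, NR2F2-AS1, reached 29.8, 30.8 and 30.2 CPM from 1 ESC count. NR2F2 and NR2F2-AS1 overlap at their starts on opposite strands, and the strand setting of the counting was not stated, so reads there cannot be assigned with certainty.

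PAX6, the transcription factor whose onset marks human neuroectoderm, went from 0.203, 0.246 and 0.239 CPM to 409, 409 and 410 CPM (log2 fold change 10.62 ± 0.07). HES5, a Notch target of neural progenitors, went from 0.087, 0.0351 and 0.0683 CPM to 160, 168 and 173 CPM (11.06 ± 0.11). PAX3, a factor of the dorsal neural tube and neural border, had 5 counts in 1 ESC library, none in the others, and 164, 154 and 157 CPM in neuroectoderm (11.23 ± 0.12). FEZF2, a forebrain factor, had 2 ESC counts and 77.3, 77.1 and 81.3 CPM in neuroectoderm, a ratio of 3620 (1002 to 29900). Forebrain and dorsal factors thus both stood among the 10 largest increases.

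The largest decreases were led by the Nodal pathway. NODAL (chr10:70431936-70447951), the TGF-beta family ligand that sustains pluripotency, stood at 10.2, 9.69 and 11.5 CPM in ESC and had no count in neuroectoderm, at least 255-fold lower. LEFTY2, a secreted inhibitor that Nodal itself induces, went from 18.6, 17.4 and 17.6 CPM to 1 count in 1 library (ratio 1312, 235 to 51850). TDGF1, the Nodal co-receptor, fell from 461, 479 and 496 CPM to 0.731, 0.58 and 0.562 CPM (log2 fold change -9.73 ± 0.07). TDGF1P3, a near-identical copy of TDGF1 on chromosome X, fell by 9.53 on the log2 scale, but reads of the copies can be exchanged and its value is uncertain.

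The other large decreases were of 4 noncoding RNAs and 2 further coding genes. LINC02700 fell from 99.9, 103 and 104 CPM to 0.077, 0.0414 and 0.346 CPM. LINC00678 fell by 9.32 on the log2 scale and ended at 0.116, 0.248 and 0.173 CPM. LINC01844 went from 15.3 to 18 CPM in ESC to 1 count in neuroectoderm, and LNCPRESS1, a noncoding RNA known from pluripotent cells, from 32.5 to 34.2 CPM down to 0.0385 to 0.0865 CPM. TMEM30B, a flippase subunit, fell by 9.33 on that scale. MT1G, a metal-binding metallothionein, went from 14.3 to 17.4 CPM to 2 counts in 1 library (ratio 587, 162 to 4854).

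**Figure D2:**
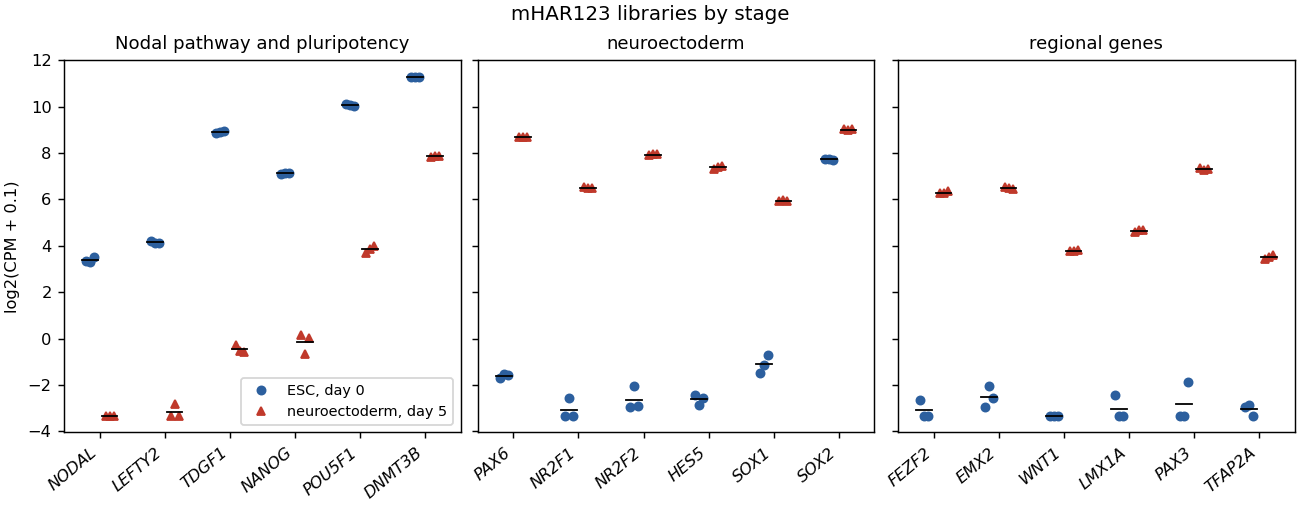
Level of 18 genes as log2 of CPM plus 0.1 in each mHAR123 library, with blue circles for the 3 ESC libraries, red triangles for the 3 neuroectoderm libraries and a black line at the mean of each group. NODAL has no count in neuroectoderm and WNT1 none in ESC, while SOX2, at 211 to 213 CPM in ESC and 504 to 525 CPM in neuroectoderm, moved little beside its neighbours.

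The promoters of WNT1 and NODAL are shown because each gene passed between no count and steady expression in opposite directions. They run from 250 bases before to 50 bases after a RefSeq start on GRCh38.p14, 5′ to 3′ on the gene's strand, with capitals on GGGCGG, a GC box bound by SP factors. The WNT1 window is chr12:48978072-48978371 on the plus strand and the NODAL window is chr10:70441632-70441931 on the minus strand.
WNT1: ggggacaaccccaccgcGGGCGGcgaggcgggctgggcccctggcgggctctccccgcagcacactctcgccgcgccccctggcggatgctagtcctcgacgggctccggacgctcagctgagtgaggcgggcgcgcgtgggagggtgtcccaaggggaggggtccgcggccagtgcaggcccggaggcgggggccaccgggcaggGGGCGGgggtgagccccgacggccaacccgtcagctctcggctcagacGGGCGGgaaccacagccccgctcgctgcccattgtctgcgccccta
NODAL: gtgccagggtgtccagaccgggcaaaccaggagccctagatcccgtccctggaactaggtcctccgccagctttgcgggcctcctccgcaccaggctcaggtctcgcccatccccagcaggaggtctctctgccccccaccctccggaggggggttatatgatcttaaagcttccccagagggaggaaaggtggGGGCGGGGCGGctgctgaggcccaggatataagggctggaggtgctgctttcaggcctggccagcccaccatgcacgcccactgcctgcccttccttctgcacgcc

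WNT1 held 3 such boxes and NODAL 2 that overlap, and the other motifs searched on both strands (CCAAT and TATAAA, the octamer ATTTGCAT, the E-box CACGTG, and the SOX core ACAAAG) were in neither window. GGGCGG was in 63.3% of 19128 promoters of tested genes, 56.9% of 3369 called higher and 64.1% of 3982 called lower. ATTTGCAT, the octamer read by POU factors, was in 1.43%, 1.42% and 1.46% of the same groups. ACAAAG, a core of the SOX motif, was in 12.5%, 14.1% and 12%. These shares describe the windows only.

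The pluripotency circuit was shut down with a few exceptions. Of 20 core pluripotency genes, 16 were lower and 1 was higher, with a median log2 fold change of -4.62 beside 0.03 over all tested genes. POU5F1 fell from 1107, 1075 and 1056 CPM to 12.9, 14.3 and 15.8 CPM (log2 fold change -6.41 ± 0.04). NANOG fell from 136, 143 and 142 CPM to 1, 0.538 and 0.909 CPM (-7.58 ± 0.08). GDF3, a Nodal-related ligand, lost all counts and was at least 149-fold lower. DNMT3B, the de novo DNA methyltransferase of pluripotent cells, fell from 2463 to 2489 CPM down to 227 to 238 CPM (-3.58 ± 0.03). SOX2, shared by pluripotent and neural cells, was the member that rose, from 213, 213 and 211 CPM to 525, 504 and 522 CPM (1.12 ± 0.03), and it passed the fold threshold by little, since the columns labelled cHAR123 ECTO gave 0.99. LIN28A, LIN28B and SALL4 completed the list with -0.53, 0.21 and 0.76 on the log2 scale and were not called. In these bulk libraries fewer cells of a type and less RNA per cell cannot be told apart. Markers of the naive state were low to begin with: 4 of 8 tested were lower and 0 higher (median -2.54), among them TFCP2L1 at 14.1, 14.6 and 15.1 CPM in ESC and 0.231, 0.29 and 0.303 CPM in neuroectoderm.

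Genes that define neuroectoderm were raised as the label states: 18 of 22 were higher, 1 was lower, and the median log2 fold change was 5.63. Beside PAX6, NR2F1, NR2F2 and HES5, SOX1 rose from 0.261, 0.351 and 0.513 CPM to 60.8, 62.1 and 61.6 CPM (7.20 ± 0.11). OTX2, a factor of forebrain and midbrain already present in hESCs, rose from 26.1, 29.1 and 27.4 CPM to 528, 516 and 502 CPM (4.06 ± 0.04).

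In the forebrain and eye field list 13 of 14 tested genes rose (median 6.00). EMX2, a dorsal forebrain factor, went from 0.029, 0.141 and 0.0683 CPM to 92.7, 89.8 and 86.3 CPM (9.96 ± 0.13), and LHX5, an anterior homeodomain factor, from 0.058, 0.246 and 0.103 CPM to 109, 111 and 112 CPM (9.52 ± 0.11). HESX1, an early anterior gene, fell from 2.39 to 2.7 CPM down to 0.731 to 1.37 CPM. SIX6, VAX2 and NKX2-1 had too few counts to be tested. Of 19 midbrain, hindbrain and roof plate genes, 16 rose (median 3.41), led after WNT1 by BARHL1 (43, 44.1 and 45.4 CPM in neuroectoderm, 9.69 ± 0.17) and LMX1A, a roof plate factor (3 ESC counts, then 23.9, 25.2 and 25.7 CPM). GBX2, a hindbrain factor that is also on in hESCs, fell from 1.23 to 2.12 CPM down to 0.124 to 0.154 CPM. None of 39 HOX genes, which mark hindbrain and spinal cord, had enough counts to be tested, the highest count in any of the 6 libraries being 9.

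Most neural border genes were higher. Of 17 tested neural border and neural crest genes, 10 rose and 3 fell (median 3.17). Beside PAX3, the AP-2 factors TFAP2B and TFAP2A, which act early at the border, rose to 36.3, 35.2 and 35.7 CPM (9.08 ± 0.17) and to 10.6, 11.3 and 12 CPM (from 2 ESC counts, ratio 519, 143 to 4296). The members that fell were the receptor gene ERBB3 (log2 fold change -1.36) and the transcription factor genes SOX8 (-1.35) and ETS1 (-1.35). FOXD3, a crest specifier that is also on in hESCs, went from 33.1, 32.9 and 33.5 CPM to 15.2, 21.7 and 19.9 CPM, and with a log2 fold change of -0.98 it was not called. In the surface ectoderm and placode list 7 of 15 rose and 4 fell (median 0.51). DLX5, DLX6 and GRHL3 rose most there (log2 fold changes 5.92, 4.93 and 2.82). Among the members that fell, GRHL2, a factor of simple epithelium, went from 54.1 to 55.9 CPM down to 1.16 to 1.57 CPM. KRT18, an epithelial keratin, went from 315 to 328 CPM down to 52.8 to 57.1 CPM.

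Early neuronal genes rose in 17 of 22 cases, with 1 lower and a median of 4.58. NEUROD4, a proneural factor, had 3 ESC counts and 39.9, 38.8 and 37.6 CPM in neuroectoderm (ratio 1193, 408 to 5790). NEUROG2, which commits progenitors to neurons, had no ESC count and 2.27, 3.35 and 2.03 CPM, at least 78.5-fold higher. ONECUT1 fell from 5.1 to 7.45 CPM down to 2.47 to 2.62 CPM.

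Markers of other lineages were few. For mesoderm, 10 of 17 genes, TBXT and EOMES included, had too few counts to be tested (at most 9 in a library), and of the 7 tested 4 fell and 2 rose. The summed mesoderm level was 116 to 117 CPM in ESC and 22.5 to 23.8 CPM in neuroectoderm, most of it KDR, a receptor also present in hESCs, at 109 to 110 CPM and then 13.4 to 15.1 CPM. For endoderm, 9 of 15 were untested, SOX17 and GATA6 included (at most 13 counts), 3 fell and 3 rose. The endoderm sum went from 6.46 to 7.31 CPM up to 50.1 to 55.2 CPM, most of it CXCR4, a chemokine receptor that neural cells also carry, at 0.632 to 1.16 CPM and then 48.7 to 52.6 CPM. The pioneer factor FOXA1 had no count in ESC and 18, 30 and 15 counts in neuroectoderm, at least 26.4-fold higher. GSC, a homeobox gene of the organizer, rose from 2, 4 and 2 counts to 30, 12 and 16 counts (log2 fold change 2.95 ± 0.48). The 3 endoderm genes that fell were CER1, FOXA2 and AFP (-6.72, -5.18 and -4.78). For trophoblast and amnion, 7 of 12 were untested, 3 fell and 1 rose, and the sum went from 66 to 70.2 CPM down to 42.9 to 46.1 CPM. The part of such cells in the results below was not tested.

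**Figure D3:**
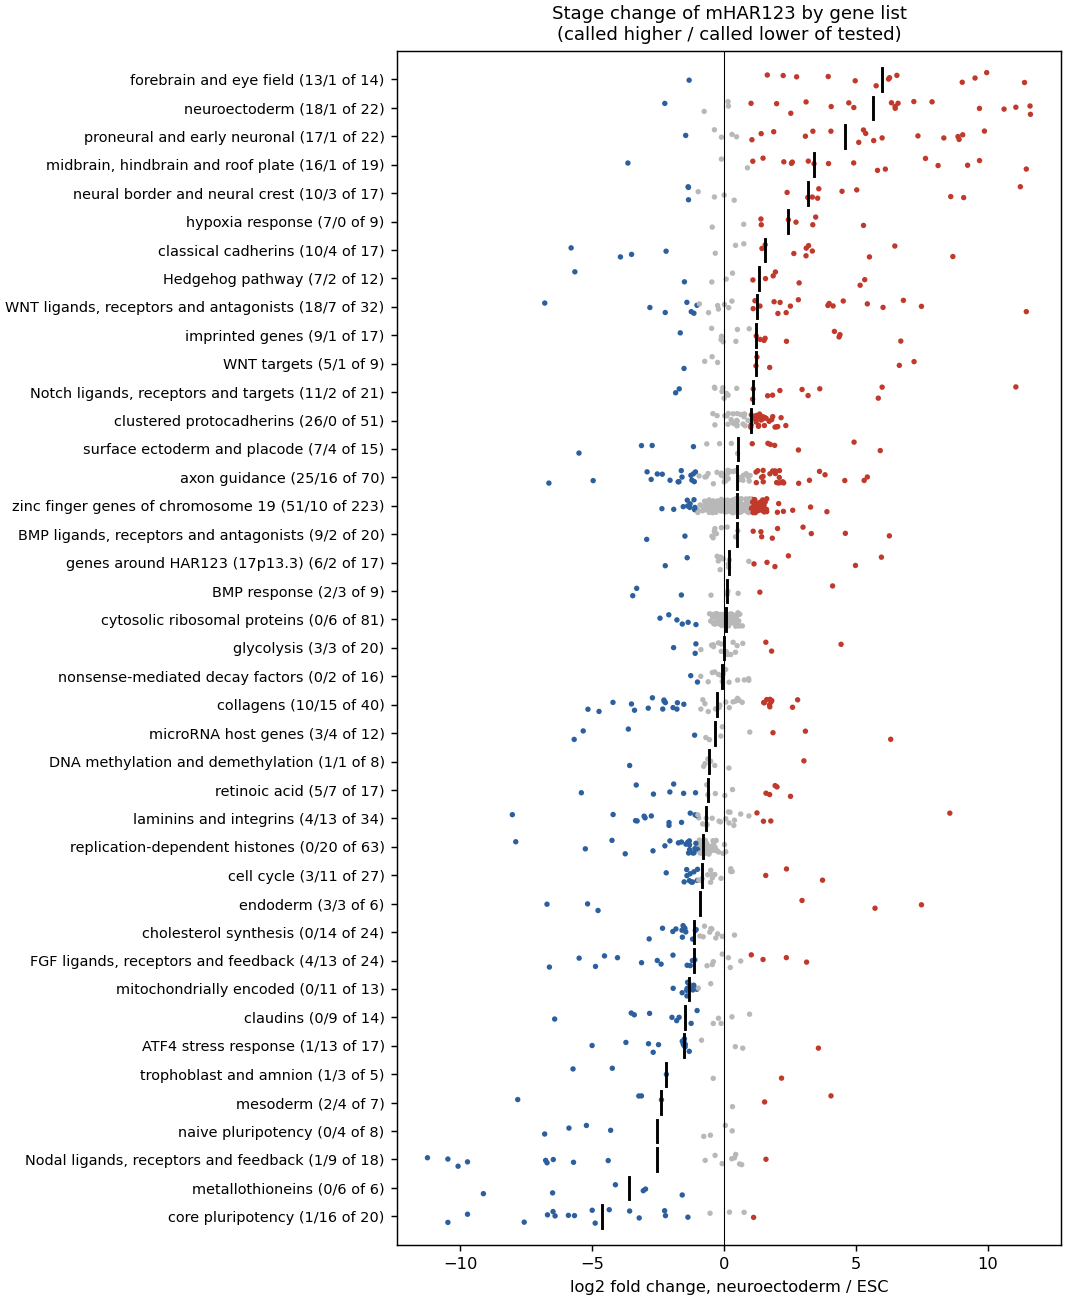
Log2 fold change between neuroectoderm and ESC libraries of mHAR123 for every tested member of the gene lists (1 point per gene), ordered by the list median (black line), with red for called higher, blue for called lower and grey for not called. The forebrain list has the highest median, 6.00, and the core pluripotency list the lowest, -4.62.

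Of the SMAD branches held down by the culture, the Nodal side had lower ligands and feedback genes, and its receptors did not pass the threshold. Of 18 tested Nodal genes, 9 fell and 1 rose (median -2.56). The 9 were NODAL, GDF3, LEFTY1, LEFTY2, TDGF1 and CER1, which are ligands, antagonists and the co-receptor, together with FOXH1, SKIL and PMEPA1, which are the nuclear partner and feedback targets. Of these, LEFTY1, FOXH1, SKIL and PMEPA1 were named to complete the count, after their values were seen. The receptors and the shared SMAD4 changed by less than 1 on the log2 scale, and SMAD3, a signal transducer, rose from 27.6 to 30.4 CPM up to 97.6 to 98.2 CPM (1.59 ± 0.04). On the BMP side, 9 of 20 ligand, receptor and antagonist genes were higher and 2 lower (median 0.48). BMP5 had 8 counts in 1 ESC library and 7.39, 9.03 and 7.23 CPM in neuroectoderm, BMP2 rose from 3.28, 3.37 and 3.62 CPM to 37.7, 38.8 and 37.7 CPM (3.31 ± 0.08), and the antagonist NOG rose from 0.171 to 0.203 CPM up to 4.89 to 5.38 CPM. Of 9 genes that respond to BMP, 2 rose, 3 fell and 4 did not pass, beside 21.3% and 20.7% of all tested genes called higher and lower. ID1 fell from 37.7 to 40.1 CPM down to 13.9 to 14.3 CPM and the inhibitory SMAD7 from 26.9 to 28.2 CPM down to 2.64 to 3.39 CPM, while ID4, an inhibitor of neurogenic factors, rose from 3.1 to 3.76 CPM up to 62.1 to 68 CPM.

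Of 24 FGF ligands, receptors and feedback genes, 13 fell, 4 rose and 7 did not pass, among them the feedback genes SPRY1, SPRED1 and SPRED2 (median -1.16). SPRY4 fell from 302, 306 and 311 CPM to 12.2, 11.8 and 11 CPM (-4.88 ± 0.04) and DUSP6, a phosphatase that damps ERK signalling, from 185, 185 and 183 CPM to 4.16, 4.64 and 5.02 CPM (-5.50 ± 0.06). The ligand FGF19 fell from 9.34 to 10.5 CPM down to at most 0.207 CPM. FGF8, a signal of the midbrain border, rose from 0.928, 1.05 and 0.991 CPM to 3.08, 3.48 and 2.73 CPM (1.48 ± 0.20), a call that was lost at 0.64 with the columns labelled cHAR123 ECTO.

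WNT genes were mostly higher. Of 32 ligands, receptors and antagonists, 18 rose and 7 fell (median 1.26). After WNT1, WNT7B, a ligand of the dorsal forebrain, rose from 0.667, 0.808 and 0.444 CPM to 126, 130 and 133 CPM (7.48 ± 0.08). SFRP5, a secreted antagonist, fell to 2 counts (ratio 116, 31.9 to 965), and the receptor FZD5 from 211 to 215 CPM down to 50.2 to 51.3 CPM. Among 9 WNT target genes 5 rose and 1 fell: LEF1 went from 0.522, 0.386 and 0.342 CPM to 48.2, 48.1 and 47.9 CPM, and AXIN2 from 18.2 to 20.5 CPM up to 71.7 to 73.8 CPM.

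Of 21 Notch genes 11 rose, 2 fell and 8 did not pass, the receptors NOTCH1, NOTCH2 and NOTCH3 among the last (median 1.08). The ligand DLL1 rose from 3.83, 3.06 and 3.04 CPM to 235, 241 and 242 CPM (5.99 ± 0.06) and HES4, a target, from 1.2 to 1.36 CPM up to 83 to 86.4 CPM. HES6 fell by 1.84 on the log2 scale and HEY2 fell by 1.70. Of 12 Hedgehog genes 7 rose, 2 fell and 3 did not pass (median 1.33). The co-receptors BOC and GAS1 rose to 325 to 332 CPM (5.33 ± 0.05) and to 174 to 187 CPM (5.16 ± 0.06). GLI3, the main repressor of the pathway, rose from 69.3 to 74.1 CPM up to 581 to 590 CPM. GLI1, a direct target used as a readout of Hedgehog signalling, fell from 18.2, 21.2 and 18.5 CPM to 0.577, 0.29 and 0.389 CPM (-5.66 ± 0.15). PTCH1, named after its values were seen, was called higher (log2 fold change 1.945), so GLI1 alone is not read as the output of the pathway. Retinoic acid genes had no common direction, with 5 of 17 higher and 7 lower. CRABP1, a binding protein, rose to 159 to 164 CPM, and DHRS3, which turns retinal back into retinol, fell to 2.35 to 2.94 CPM.

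Cell adhesion genes changed in both directions. Of 17 classical cadherins 10 rose and 4 fell. CDH1, the epithelial cadherin, fell from 195, 199 and 200 CPM to 4.23, 3.52 and 4.2 CPM (-5.80 ± 0.06), and CDH6, expressed in the neural plate, rose from 1.22, 0.562 and 0.854 CPM to 48.3, 47.7 and 42.9 CPM (5.51 ± 0.11). Among claudins, the seal of tight junctions, 9 of 14 fell and 0 rose (median -1.48), led by CLDN7, from 52.1 to 54.5 CPM down to 0.389 to 1 CPM, although scaling by total counts called 1 claudin higher. Of 51 clustered protocadherins, surface labels that neurons use to tell themselves apart, 26 rose and 0 fell (median 1.01, with 1 lower in the columns labelled cHAR123 ECTO), with PCDHGB6 at 8.85 to 10.4 CPM and then 53 to 56.4 CPM. Members of these clusters share 3′ exons, so counts could be divided among them and single values are uncertain. In the axon guidance list 25 of 70 rose and 16 fell, the lower share being near the 20.7% of all tested genes called lower. EPHA4 rose from 11, 12 and 10.9 CPM to 509, 511 and 491 CPM (5.31 ± 0.04), DCC, the netrin receptor, from 1.25 to 1.47 CPM up to 61 to 69.8 CPM, and EPHA1 fell from 200 to 206 CPM down to 2 to 2.77 CPM. Laminin and integrin genes fell in 13 of 34 cases and rose in 4, with LAMC3 going from 59.9 to 62.7 CPM down to 0.166 to 0.346 CPM.

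MicroRNA host genes changed in both directions. Of 12 tested, 3 rose and 4 fell, beside 21.3% and 20.7% of all tested genes, so the higher share is near that of all genes. MIR302CHG (chr4:112646476-112650051), host of a cluster typical of pluripotent cells, fell from 203, 223 and 227 CPM to 6.89, 5.42 and 5.67 CPM (-5.34 ± 0.06). MIRLET7BHG, a host of let-7, fell from 3.54, 3.51 and 4.89 CPM to 0.116, 0.0828 and 0.0433 CPM. MIR137HG rose from 1 ESC count to 1.39, 1.24 and 1.43 CPM, and MIR210HG, host of the hypoxia-induced miR-210, from 1.3 to 1.83 CPM up to 14.2 to 14.9 CPM. Host exon counts do not measure the mature microRNAs.

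The mature arms within these hosts are shown because they state which target seeds each host could supply. They are RefSeq sequences on GRCh38.p14, 5′ to 3′, with the seed (bases 2 to 8) in capitals. The first 5 lie in MIR302CHG, the next 2 in MIRLET7BHG, and the last 3 in MIR9-1HG and MIR9-3HG, in MIR137HG and in MIR210HG.
hsa-miR-302a-3p: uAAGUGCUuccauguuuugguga
hsa-miR-302b-3p: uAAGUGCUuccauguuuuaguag
hsa-miR-302c-3p: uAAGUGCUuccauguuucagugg
hsa-miR-302d-3p: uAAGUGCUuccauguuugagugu
hsa-miR-367-3p: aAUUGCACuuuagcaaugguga
hsa-let-7a-5p: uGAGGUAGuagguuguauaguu
hsa-let-7b-5p: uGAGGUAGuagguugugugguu
hsa-miR-9-5p: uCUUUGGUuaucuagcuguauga
hsa-miR-137-3p: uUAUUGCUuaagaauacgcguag
hsa-miR-210-3p: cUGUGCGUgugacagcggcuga

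The 4 miR-302 arms share the seed AAGUGCU, and both let-7 arms share GAGGUAG. The tested hosts of miR-9, MIR9-1HG and MIR9-3HG, went in opposite directions although their mature arm is the same. MIR9-1HG rose from 5.05, 4.39 and 4.89 CPM to 19.8, 19.5 and 19.2 CPM (1.85 ± 0.09), and MIR9-3HG fell from 27, 26 and 25 counts to 16, 8 and 8 counts (-1.12 ± 0.33). MIR9-3HG was named after its values were seen, because it shares the miR-9 arm, and its fall rests on few counts (adjusted p = 0.00165, edgeR). Its log2 fold change was 0.43 in hHAR123, -0.98 in HAR123-KO and -1.10 in cHAR123, also at low levels. Of these, only the difference from hHAR123 was called in the interaction tests below (adjusted p = 0.0093, edgeR).

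Of 9 hypoxia response genes 7 rose and 0 fell (median 2.44), with BNIP3, a mitophagy receptor, rising from 12.9, 13.6 and 13.1 CPM to 152, 155 and 151 CPM (3.36 ± 0.05), NDRG1 from 2.29 to 3.25 CPM up to 35.2 to 36.6 CPM, and ANKRD37 from 0.478 to 0.812 CPM up to 30.1 to 30.2 CPM. Most glycolysis genes did not pass, with 3 of 20 higher and 3 lower, or 1 lower with total counts or with glmTreat, edgeR's test against the fold threshold itself. The lactate exporter SLC16A3 rose from 3.31 to 4.17 CPM up to 90.3 to 99.3 CPM and the glucose transporter SLC2A1 from 264 to 271 CPM up to 872 to 929 CPM. Cholesterol synthesis genes fell in 14 of 24 cases, with none higher (median -1.14). Genes of the ATF4 stress response fell in 13 of 17 cases (median -1.53), ATF4 itself, the factor of amino acid stress, among them (-1.59). The amino acid transporter SLC7A5 fell from 673 to 693 CPM down to 22.7 to 24.6 CPM. DDIT4, which hypoxia also induces, was the 1 that rose, from 30.4 to 32 CPM up to 407 to 425 CPM. Of 27 cell cycle genes 11 fell and 3 rose (median -0.84). CCNE1 fell from 37.8 to 38.7 CPM down to 8.78 to 9.74 CPM, and the inhibitor CDKN1C rose from 9.09 to 11.8 CPM up to 59.4 to 63.1 CPM.

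SMG6 and HIC1, the genes next to the edited element, were followed separately. SMG6 (chr17:2059839-2303785, minus strand), an endonuclease of nonsense-mediated mRNA decay and host of HAR123, went from 70.9, 67 and 68.8 CPM to 148, 148 and 150 CPM. Its log2 fold change of 0.94 ± 0.04 fell short of the threshold on the TMM scale and passed it at 1.11 with total counts. HIC1 (chr17:2054154-2063241, plus strand), a transcriptional repressor, had 1 count over the ESC libraries and 12, 11 and 16 counts in neuroectoderm, 0.462, 0.455 and 0.692 CPM (ratio 49.1, 8.31 to 1989). The genes overlap on opposite strands, and with no stated strand setting the reads of HIC1 are uncertain. Of 17 tested genes around HAR123 at 17p13.3, 6 rose and 2 fell (median 0.17). RTN4RL1, a neuronal receptor gene, rose from 0.174 to 0.351 CPM up to 19.9 to 20.2 CPM. Of 16 factors of nonsense-mediated decay 2 fell, EIF4A3 and MAGOH, and 0 rose, but with total counts 2 rose and 1 fell, and MAGOH, at -1.01, was also lost in some fits without 1 library.

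The stage change of mHAR123 was then set beside that of the other genotypes, each fitted alone on its own libraries. Genes called higher in both mHAR123 and hHAR123 numbered 4178, 88.6% of the mHAR123 genes and 76.1% of the hHAR123 genes, and those called lower in both numbered 3956 (86.3% and 83.6%). For HAR123-KO the shared genes were 3591 higher (76.2% and 75.9%) and 3537 lower (77.1% and 86%). For cHAR123 they were 4087 higher (86.7% and 84.6%) and 4132 lower (90.1% and 90.3%). Genes called in opposite directions numbered 1, 29 and 0 for the same 3 genotypes. The Pearson correlation of log2 fold changes across genes, which are not independent replicates, was 0.961 over 21548 genes with hHAR123, 0.936 over 21085 with HAR123-KO and 0.973 over 21543 with cHAR123.

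**Figure D4:**
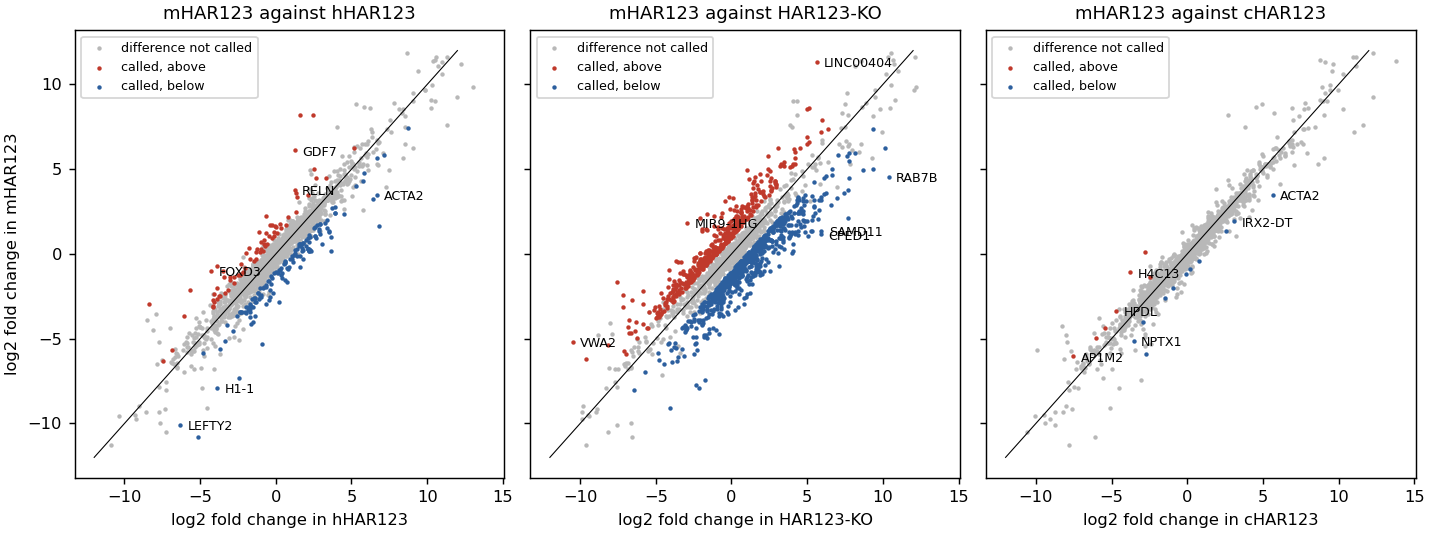
Log2 fold change between the stages in mHAR123 (vertical axis) against the same in hHAR123, HAR123-KO and cHAR123 (horizontal axes), for genes of the lists and genes with a called difference. Red and blue points are genes whose stage change was called more positive or more negative in mHAR123 by the interaction test, and the black line marks equal change. HAR123-KO has the most called genes, 472 and 704.

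Whether the stage change itself differed was tested as the interaction of genotype and stage over 12 libraries. Values below are differences, the log2 fold change of mHAR123 minus that of the other genotype. The 3 tests share the mHAR123 libraries, so their values are given side by side.

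Against hHAR123 the difference was positive for 73 of 23681 genes (0.308%) and negative for 157 (0.663%). GDF7, a BMP ligand of the roof plate, rose in mHAR123 from 0.203, 0.105 and 0.103 CPM to 11.4, 10.9 and 11.7 CPM and in hHAR123 from 3.06, 2.44 and 2.1 CPM to 6.71, 7.69 and 7.43 CPM (difference 4.86 ± 0.30, adjusted p = 2.38e-17, edgeR). The gap thus lay at both stages, lower in mHAR123 ESC and higher in mHAR123 neuroectoderm.

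PAX7, a border and crest factor, reached 10.1, 9.48 and 9.56 CPM in mHAR123 neuroectoderm and 1.86, 1.98 and 1.84 CPM in hHAR123, from under 0.4 CPM in every ESC library of both (2.51 ± 0.45, adjusted p = 3.54e-05, edgeR). FOXD3 fell to 2.28, 2.69 and 2.52 CPM in hHAR123 from 37.4 to 41.4 CPM, further than in mHAR123 (3.25 ± 0.14). Its antisense neighbour FOXD3-AS1 fell to 3.68 to 4.08 CPM in mHAR123 and to 0.809 to 0.827 CPM in hHAR123 (2.41 ± 0.18). RELN, the secreted glycoprotein that guides migrating neurons, reached 12.5, 12.5 and 13.5 CPM in mHAR123 and 3.24, 2.48 and 1.96 CPM in hHAR123 (2.54 ± 0.30). In all of these, named for their large differences, the neuroectoderm libraries of the 2 genotypes did not overlap. That follows from how they were chosen and adds no support to them. FOXD3 and FOXD3-AS1 are neighbours on opposite strands, so without a stated strand setting reads they share cannot be assigned.

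Of 17 neural border and neural crest genes, 6 differed positively from hHAR123 and 0 negatively. They were PAX7, FOXD3, SNAI2, ETS1, ERBB3 and SOX10, the last 4 named after their values were seen, to complete the count. In the neuroectoderm, proneural, BMP response, FGF and WNT lists no gene was called in either direction, and in the forebrain list 1 of 14 was. Of 17 genes around HAR123 at 17p13.3, 0 were called.

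In the negative direction, the linker histone gene H1-1 stood at 38 to 40 CPM in mHAR123 ESC and 37.5 to 40.4 CPM in hHAR123 ESC and fell to 0.269, 0.124 and 0.13 CPM against 3.71, 3.14 and 3.16 CPM (-4.06 ± 0.28). ACTA2, smooth muscle actin, rose from 0.348, 0.738 and 0.512 CPM to 6.7, 6.91 and 6.53 CPM in mHAR123 and from 0.0316, 0.151 and 0.114 CPM to 12.2, 13.4 and 13.4 CPM in hHAR123 (-3.19 ± 0.44). Its libraries thus lay apart at both stages, higher in mHAR123 ESC and lower in mHAR123 neuroectoderm. ACTA1, skeletal actin, fell from 31.8 to 35.8 CPM down to 1.93 to 2.81 CPM against 12.6 to 13.8 CPM down to 4.95 to 6.12 CPM (-2.54 ± 0.16). LEFTY2 differed by -3.79 ± 0.99 on 1 count in mHAR123 neuroectoderm, and its call was lost without hHAR123 ECTO library 1 or without mHAR123 ECTO library 1 or 3 (adjusted p = 0.0992, 0.0218 and 0.0182, edgeR). It was also lost with DESeq2 (adjusted p = 0.0106) and with the columns labelled mHAR123 ECTO and cHAR123 ECTO exchanged, at a difference of -2.10 (adjusted p = 0.0475, edgeR).

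Against HAR123-KO the difference was positive for 472 of 23107 genes (2.04%) and negative for 704 (3.05%). Border genes lay on the other side of this comparison: of 17 neural border and neural crest genes 12 differed negatively and 0 positively. PAX7 reached 127, 121 and 125 CPM in HAR123-KO neuroectoderm, and its rise from ESC was steeper than in mHAR123 (difference -4.30 ± 0.53, adjusted p = 2.01e-09, edgeR). The PAX7 level of mHAR123 neuroectoderm therefore lay between those of hHAR123 and HAR123-KO. FOXD3 and RELN showed the same order, at 187 to 188 CPM and 193 to 200 CPM in HAR123-KO.

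The other negative genes led by size were low in mHAR123 at both stages. CPED1 reached 0.654, 0.455 and 0.606 CPM in mHAR123 against 7.45, 8.82 and 8.46 CPM in HAR123-KO (-4.74 ± 0.60), SAMD11, a transcriptional cofactor, 0.779 to 0.911 CPM against 7.28 to 8.03 CPM (-4.56 ± 0.60), and GALNT15, which starts O-linked glycans, 0.423 to 0.787 CPM against 4.95 to 6.13 CPM (-3.97 ± 0.63). RAB7B had no count in HAR123-KO ESC and 6.49 to 7.75 CPM in HAR123-KO neuroectoderm, against 0.962 to 1.57 CPM in mHAR123, and its call was lost without HAR123-KO ESC library 2 or 3 or mHAR123 ESC library 3 (adjusted p = 0.0112, 0.0111 and 0.141, edgeR).

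The positive differences from HAR123-KO included genes that rose in mHAR123 and fell in HAR123-KO. MIR9-1HG rose to 19.2 to 19.8 CPM in mHAR123 and fell from 4.67 to 5.27 CPM down to 0.474, 1.08 and 0.613 CPM in HAR123-KO (4.80 ± 0.20, adjusted p = 2.24e-27, edgeR). In neuroectoderm MIR9-1HG also reached 29.6 to 32 CPM in hHAR123 and 20.6 to 21.6 CPM in cHAR123, so its rise was not particular to mHAR123. LRRC3B, a membrane protein gene, rose from 3.83 to 4.12 CPM up to 19.1 to 20.5 CPM and in HAR123-KO fell from 4.25 to 4.79 CPM down to 1.19 to 1.25 CPM (4.25 ± 0.18). LINC00404 reached 11.9 to 12.9 CPM against 2.58 to 3.19 CPM, and because mHAR123 ESC had no count its fitted difference of 5.65 depends on the prior count and its call was lost without HAR123-KO ESC library 2 or 3 (adjusted p = 0.0263 and 0.0233, edgeR).

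Genes that fell in both genotypes but less in mHAR123 were also among the positive ones. VWA2, a matrix protein gene, had no count in HAR123-KO neuroectoderm and 0.193, 0.0828 and 0.346 CPM in mHAR123, from 6.09 to 7.21 CPM in the ESC libraries of both (fitted difference 5.32). MYH2, a muscle myosin, ended at 0.779 to 1.08 CPM in mHAR123 and 0.0416 to 0.123 CPM in HAR123-KO (4.05 ± 0.47). Of 14 forebrain and eye field genes 5 were positive (SIX3, FEZF1, SP8, LHX2 and RAX, named after their values were seen, to complete the count) and 0 negative. Of 22 neuroectoderm genes 7 were positive and 1 negative. SOX2, which rose in mHAR123, had a stage change of -0.57 in HAR123-KO and differed by 1.69. HIC1 differed by 3.93 (adjusted p = 0.00156, edgeR), on the low counts given above for mHAR123, and SMG6 by -0.19, which was not called. The authors report low HIC1 in neuroectoderm with the mouse element, similar to HAR123-KO. The difference here is one of stage changes and does not compare those levels. Of 70 axon guidance genes 5 were positive and 13 negative, and of 40 collagens 1 and 8.

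Against cHAR123 the difference was positive for 7 of 23410 genes (0.0299%) and negative for 11 (0.047%). The neural border, neuroectoderm and forebrain lists held 0 called genes in either direction. PAX7, FOXD3, GDF7 and RELN differed by 0.21 ± 0.41, 0.67 ± 0.10, 0.02 ± 0.38 and 0.08 ± 0.24 and were not called, FOXD3 for its size alone (adjusted p = 1.71e-05, edgeR). Exchanging the columns labelled mHAR123 ECTO and cHAR123 ECTO gave 43 positive and 42 negative genes.

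The largest positive difference, H4C13, turned on 1 histone gene with a low level in cHAR123. H4C13 (chromosome 6) stood at 72.1, 69.4 and 69.5 CPM in mHAR123 ESC and 37.3, 38.8 and 37 CPM in neuroectoderm, and at 1.84, 2.1 and 1.27 CPM and 0.08, 0.127 and 0.224 CPM in cHAR123 (difference 2.69 ± 0.37, adjusted p = 1.86e-06, edgeR). hHAR123 and HAR123-KO resembled mHAR123 in level, at 68 to 74.1 CPM in ESC and 31.2 to 51.9 CPM in neuroectoderm. With the columns exchanged, the difference of H4C13 became -13.38. H4C13 belongs to a histone gene family with near-identical members, so its counts are uncertain.

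The epithelial genes AP1M2, MARVELD3 and S100A11 and the enzyme gene HPDL fell less in mHAR123 than in cHAR123. Their differences were 1.48 ± 0.28, 1.08 ± 0.25, 1.06 ± 0.19 and 1.32 ± 0.27, and each call was lost without cHAR123 ECTO library 1 (adjusted p = 0.0234, 0.045, 0.0041 with a difference of 0.996, and 0.0578, edgeR). MARVELD3 was lost in most other fits without 1 library as well, and S100A11 without mHAR123 ECTO library 3 at a difference of 0.951. In the negative direction, NPTX1, a synaptic pentraxin, fell from 61.6, 61.9 and 64.7 CPM to 1.89, 1.95 and 2.29 CPM in mHAR123 and from 37.1, 37.9 and 40.2 CPM to 3.68, 3.38 and 4.35 CPM in cHAR123 (-1.57 ± 0.16). PCDHA11 stood at 21 to 23.1 CPM in mHAR123 ESC, above the 2.73 to 7.81 CPM of the other genotypes, and at 17.7 to 18.9 CPM in neuroectoderm against 8.07 to 9.63 CPM (-1.20 ± 0.12 from cHAR123).

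ACTA2, IRX2-DT and WNT4 rose less in mHAR123 than in cHAR123. ACTA2 differed by -2.18 ± 0.41, IRX2-DT, a noncoding neighbour of IRX2, by -1.21 ± 0.26, and WNT4, a ligand of the dorsal neural tube, by -1.20 ± 0.23. The call of ACTA2 was lost without mHAR123 ESC library 2 and that of WNT4 without mHAR123 ESC library 3 (adjusted p = 0.0254 and 0.0125, edgeR). The call of IRX2-DT was lost when any of 5 libraries was left out, cHAR123 ECTO library 2, cHAR123 ESC library 2 or 3 and mHAR123 ESC library 1 or 3, with adjusted p from 0.0112 to 0.0224 (edgeR).

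**Figure D5:**
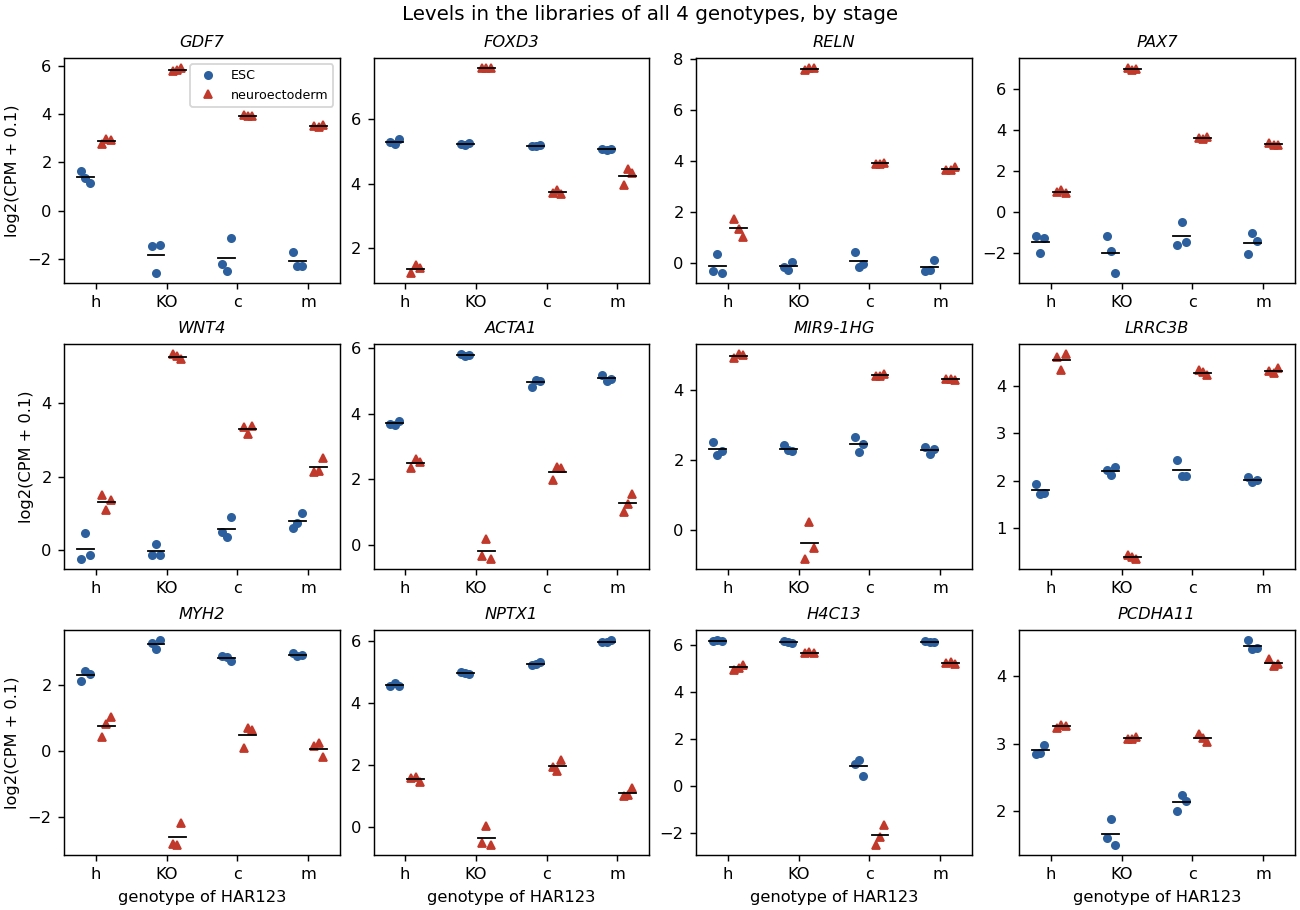
Level of 12 genes as log2 of CPM plus 0.1 in each library of hHAR123 (h), HAR123-KO (KO), cHAR123 (c) and mHAR123 (m), with blue circles for the 3 ESC libraries, red triangles for the 3 neuroectoderm libraries and black lines at the means. PAX7, FOXD3 and RELN in mHAR123 neuroectoderm lie between hHAR123 and HAR123-KO, next to cHAR123, and PCDHA11 in mHAR123 lies above all other groups.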

How the data were processed

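rRNA-depleted total RNA was sequenced with paired ends from a directional library kit. According to the methods and the submitters' processing notes, the authors aligned reads with STAR 2.5.2b to GRCh38 and counted exon reads per gene with featureCounts, and they deposited raw counts in 1 table. The strand setting is not given in the sources used here. A broken entry spread over 3 lines was left out, leaving 61551 genes, of which 61398 had an entry in the reference annotation. Samples were grouped by column label.

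Counts were filtered (filterByExpr), scaled by TMM and fitted with edgeR 4.0.16 (quasi-likelihood F test, R 4.3.3), with stage as the factor over the 6 mHAR123 libraries and genotype by stage over 12 libraries for each interaction. Calls needed an adjusted p (Benjamini-Hochberg) under 0.01 and a log2 fold change beyond 1. Ratios for groups with 1 to 3 counts carry 95% counting intervals, and groups with no count were set to a floor of 3 counts. Tables were handled in Python 3.11.15 with pandas 2.3.3 and scipy 1.17.1, and the fits were tested on simulated data. Named genes were the 10 largest changes each way at 10 CPM or more, the 3 largest called changes each way and defining genes of each list, the 5 largest differences each way per interaction at 5 CPM or more, and SMG6 and HIC1. The members and lists were chosen with earlier results of these data known. Alternatives included DESeq2 1.42.0, other scalings and filters, a replicate block, thinned counts, exchanged columns and leaving out each library. Some genes that these rules select are not reported here.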

Additional observations from a re-analysis of the deposited data

Results flagged for a closer look

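The stage change of mHAR123 differed from that of another genotype, by the interaction test in edgeR, for 73 genes positively and 157 negatively against hHAR123, for 472 and 704 against HAR123-KO, and for 7 and 11 against cHAR123. Differences are log2 fold changes of mHAR123 minus those of the other genotype.

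Against hHAR123 the named differences were 4.86 for GDF7, 3.25 for FOXD3, 2.54 for RELN, 2.51 for PAX7 and 2.41 for FOXD3-AS1. In the negative direction they were -4.06 for H1-1, -3.79 for LEFTY2, -3.19 for ACTA2 and -2.54 for ACTA1.

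Against HAR123-KO they were 5.65 for LINC00404, 5.32 for VWA2, 4.80 for MIR9-1HG, 4.25 for LRRC3B and 4.05 for MYH2. The negative ones were -5.90 for RAB7B, -4.74 for CPED1, -4.56 for SAMD11, -4.30 for PAX7 and -3.97 for GALNT15. The values of LINC00404, VWA2 and RAB7B involve a group of libraries with no count and depend on the prior count.

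Against cHAR123 they were 2.69 for H4C13, 1.48 for AP1M2, 1.32 for HPDL, 1.08 for MARVELD3 and 1.06 for S100A11, and -2.18 for ACTA2, -1.57 for NPTX1, -1.21 for IRX2-DT, -1.20 for WNT4 and -1.20 for PCDHA11. All of these but PCDHA11, and the call of LEFTY2 against hHAR123, depend on which neuroectoderm columns are taken as mHAR123.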

How the results depend on the processing

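The stage change gave 4715 higher and 4585 lower genes and 4719 to 4823 and 4652 to 4775 without 1 library. Testing the fold threshold itself with glmTreat gave 3101 higher and 3630 lower genes, and DESeq2 gave 4182 higher and 4932 lower. Total counts in place of TMM gave 5553 higher and 4000 lower, so which direction held more genes depended on the setting. Of 193 genes followed in the stage change, 8 lost or gained a call in some setting (SOX2, HESX1, FGF8, HHIP, ALDOC, LDHB, MAGOH and SMG6).

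Against hHAR123, DESeq2 called 98 negative differences, and an adjusted p under 0.05 gave 127 positive and 361 negative. Against cHAR123, an adjusted p under 0.05 gave 21 and 29, DESeq2 called 5 negative ones, and 18 were called with no filter on low counts. Leaving out 1 library gave 4 to 9 positive calls against cHAR123, with 4 without cHAR123 ECTO library 1. Exchanging the columns labelled cHAR123 and mHAR123 ECTO gave 43 and 42 and turned the difference of H4C13 to -13.38, AP1M2 to -1.41, HPDL to -3.42, MARVELD3 to -0.99, S100A11 to -0.63, NPTX1 to 0.17 and WNT4 to 0.85. Of 30 differences followed, 12 changed call or sign in some setting. The cause was not tested.

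Same-numbered ESC and neuroectoderm libraries of mHAR123 did not deviate together (r across genes from -0.0132 to 7e-04). No pairing by number was thus seen, which does not exclude that same-numbered libraries share a clone or a batch. A replicate block gave 4664 higher and 4565 lower genes, and 7 negative differences from cHAR123 in place of 11. With the block the calls of IRX2-DT (adjusted p = 0.0108, edgeR) and MARVELD3 (0.0191) were lost.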

Other observations

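Of 63 tested replication-dependent histones, whose mRNAs are made in S phase, 20 fell, 0 rose and 43 did not pass (median log2 fold change -0.81), with H1-1 going from 40, 38.2 and 38 CPM to 0.269, 0.124 and 0.13 CPM and H3C3 from 9.74 to 12.4 CPM down to 0.248 to 0.346 CPM. Histone members are near copies, so single values are uncertain. Of 13 mitochondrially encoded genes 11 fell and 0 rose (median -1.33), MT-ND6 from 374, 390 and 389 CPM to 110, 117 and 113 CPM. All 6 tested metallothioneins, which bind zinc and copper, fell. Of 81 ribosomal protein genes 6 fell and 0 rose, RPS26 from 230 to 240 CPM down to 61.2 to 62 CPM.

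Imprinted genes were mostly higher, with 9 of 17 raised and 1 lower (median 1.22). DLK1, a Notch-related membrane protein, rose from 0.841, 1.05 and 0.922 CPM to 105, 115 and 110 CPM (6.70 ± 0.08), IGF2, a growth factor, rose to 18.4 to 22.2 CPM, and SNRPN fell from 66.9 to 75.3 CPM down to 23.7 to 26.9 CPM. Of 223 zinc finger genes of chromosome 19, 51 rose and 10 fell (median 0.49), the rise being near the 21.3% of all tested genes called higher, and glmTreat left 27 higher. ZNF781 rose from 0.232, 0.632 and 0.342 CPM to 6.66, 6.42 and 6.79 CPM, and ZNF525 fell from 60.7 to 63.9 CPM down to 13 to 14.6 CPM. Of 40 collagens 10 were higher, 15 lower and 15 neither, the higher share being near the same 21.3%. COL2A1 rose from 51.5 to 54.1 CPM up to 353 to 367 CPM (2.59 ± 0.03) and COL8A2 fell from 7 to 7.9 CPM down to 0.0865 to 0.346 CPM. TET2, which oxidises methylated cytosine, rose from 9.34, 9.69 and 10.8 CPM to 92.7, 87.9 and 91.8 CPM (3.03 ± 0.05).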
